A study of Homo sapiens with 22 samples.

Results

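The genes described here are 4 receptor tyrosine kinases, EGFR, ERBB2, ERBB3 and MET, and 6 ligands, EGF, TGFA, HBEGF, AREG, EREG and HGF. They were taken by name as a signaling family, and all 10 had a row among the 36859 genes of the deposited RNA-seq table. The cells were RPTEC, a human renal proximal tubule epithelial line immortalized with hTERT, and RNA-seq was run in duplicate for 11 groups (22 libraries). The comparisons ask how this signaling family is expressed after loss of SETD2, the methyltransferase that places H3K36me3, after its return, and after TGF-β.

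Among libraries in medium with 2% serum, WT cells had no added factor, WT + TGF-β received 10 ng/ml TGF-β for 72 h, and KO1 and KO2 were untreated SETD2 KO clones. A further pair of 2% serum libraries was labelled KO2 rescue. Among libraries in medium with 10% serum, Rescue1 and Rescue2 were KO clones transduced with full-length SETD2, and WT cells had been transduced with eGFP, SOX2, OCT2 or PRRX1. Each KO and rescue line was grown from a single cell, so a clone and its genotype cannot be told apart, whereas the transduced WT lines were selected populations. Growth medium for all cells contained a supplement kit, and its composition is not given in the sources used here. No source says that duplicates were separate cultures, so p-values measure only the spread between these libraries.

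EGFR, ERBB2 and ERBB3 pair with one another when a ligand of the EGF family binds. ERBB2 binds no ligand and acts as a partner, and ERBB3 has little kinase activity and signals through its partner. EGF, TGF-α, HB-EGF, amphiregulin and epiregulin are made as membrane-bound precursors that proteases of the ADAM family release. HGF, the ligand of MET, is secreted mainly by mesenchymal cells as an inactive precursor and acts on epithelial cells, in the kidney during tubule growth and repair. All these receptors signal through adaptors to the RAS-ERK pathway, whose output includes genes that feed back on it.

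SETD2, the targeted gene, had 1852 and 2061 normalized counts in WT, 1046 and 1130 in KO1, and 1050 and 1052 in KO2. A normalized count is a read count scaled to a common library size. Transcript was therefore lower in both clones (log2 change -0.85 for KO1 and -0.89 for KO2) but present. In the Rescue1 and Rescue2 libraries SETD2 was 9764 to 10445. The libraries labelled KO2 rescue had 834 and 820, below KO2 (log2 change -0.35, limma adjusted p = 0.00382), which goes against their label, so they are called the labelled KO2 rescue. Of the 2 other genes examined for labels, PRRX1 was at 0 and 0.662 there against 34.8 and 28.4 in KO2 (adjusted p = 6.6e-04) and listed at 0 in the rescue clones. POU2F2 was at 655 and 764 there against 2066 and 1617 in KO2 (log2 change -1.37, adjusted p = 0.134) and at 337 to 421 in the rescue clones (-2.21 against KO2, adjusted p = 0.00165), so both lay on the side of KO2 where the rescue clones were. PRRX1 stood at 395 and 404 in its line and was listed at 0 in both eGFP libraries (adjusted p = 1.5e-04). POU2F2, which encodes OCT2, stood at 1251 and 1121 in its line against 279 and 357 in eGFP, without overlap but not called (log2 change 1.90, adjusted p = 0.42). SOX2 was sought too but had no row under that symbol, so the label of its line was not checked.

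Both WT libraries, on which the comparisons of KO and TGF-β rest, differed from each other more than any other pair. Duplicates differed by a median absolute log2 value of 0.174 in WT, 0.159 in KO1 and 0.064 to 0.115 elsewhere, over genes of at least 1000 normalized counts. COL1A1, a collagen chain, was 11919 in WT replicate 1 and 532 in replicate 2. KO1 replicate 2 had 14082 genes above 0 against 15614 in replicate 1.

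Of 7 kidney epithelial genes, 6 had a median of at least 10 normalized counts. PAX8, a kidney lineage factor, ran from 1535 through a median of 5076 to 6561. CDH1 was listed at 0 in 8 libraries, with a median of 2.34 and a highest value of 58.0. Of 8 proximal tubule genes, 4 had a median of at least 10. GGT1 ran from 225 through a median of 794 to 1091, CUBN from 13.9 to 333 and ANPEP from 19.0 to 472. HNF4A was listed at 0 in all 22 libraries and LRP2, which encodes megalin, in 20 with a highest value of 2.29. Widely expressed genes were also listed at 0 in some libraries (HPRT1 in 6), so a 0 here cannot be read as absent expression. HNF4A and LRP2 therefore could not be used to check the proximal tubule label. Of the leukocyte genes, CD3E was listed at 0 throughout, PTPRC, CD14 and ITGAM had highest values of 20.1, 13.2 and 2.42, and CD68, which is not limited to leukocytes, had a median of 90.9 and reached 364 in KO1. Of the endothelial genes, PECAM1 was listed at 0 in 19 libraries and VWF and TEK had highest values of 26.3 and 14.8, while KDR was 103 to 145 in the 4 KO libraries and CDH5 was 68.7 and 83.8 in Rescue1.

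The MET promoter is shown because MET was the member that differed most firmly between groups. MET lies on chromosome 7, plus strand, between 116672196 and 116798377 (GRCh38, GENCODE 44), with 21 exons in its canonical transcript. The 250 bases before its start (RefSeq window, GRCh38.p14, chr7:116671946-116672195, plus strand, 5′ to 3′) are given with GC boxes in capitals.
MET: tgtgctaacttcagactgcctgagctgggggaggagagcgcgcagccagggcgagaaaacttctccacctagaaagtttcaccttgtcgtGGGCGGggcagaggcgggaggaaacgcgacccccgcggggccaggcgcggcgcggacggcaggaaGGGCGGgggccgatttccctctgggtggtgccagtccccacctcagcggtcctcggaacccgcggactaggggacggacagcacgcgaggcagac
GC content was 68.4%. GC boxes (GGGCGG, either strand) begin 160 and 95 bases before the start, and 42.6% of 35116 RefSeq windows of this length hold at least 1. No match was found to the AP-1 motif TGANTCA (6.6% of windows) or to the E-box CACCTG (17.5%), which says only that these letters are not in this window.

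MET transcript was higher in both KO clones than in WT, and no other of the 10 genes passed the test in both. It was 6435 and 7087 normalized counts in WT, 24531 and 24616 in KO1, and 19153 and 18045 in KO2. The 4 KO libraries lay above all other 18 libraries, which ranged from 5591 to 12178. MET rose 3.64-fold in KO1 (log2 change 1.86 ± 0.06 SE, 95% interval 1.73 to 1.99, adjusted p = 5.7e-12) and 2.75-fold in KO2 (1.46 ± 0.06, adjusted p = 1.7e-10), by limma fitted to log2(normalized count + 1), adjusted over 14585 genes by Benjamini-Hochberg. A gene was called where adjusted p was under 0.05 and the absolute log2 change over 1. Leaving out each library in turn kept both calls, at 1.79 to 1.93 for KO1 and 1.39 to 1.53 for KO2. KO1 stood above KO2 without overlap, by 0.40 (adjusted p = 3.9e-04), which is under the fold threshold.

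TGF-β did not give this rise. MET was 5648 and 5591 after TGF-β, below both WT libraries, with a log2 change of -0.27 (adjusted p = 0.00711) that is under the fold threshold. Tested directly, the KO clones exceeded WT + TGF-β by 1.93 (95% interval 1.81 to 2.04, adjusted p = 6.4e-13). The comparisons of KO and TGF-β with WT share the WT libraries. The difference in the direct comparison does not use them, but its interval and p-value rest on a spread estimated over all 22 libraries.

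With SETD2 restored, MET was 9341 and 8723 in Rescue1 and 8805 and 8741 in Rescue2. These 4 libraries were below KO2, from which both clones were derived, with a log2 change of -1.06 (adjusted p = 1.2e-09), and they did not overlap it. Under quantile normalization the change was -0.94 and under equal library totals -0.76, both below the fold threshold. Serum and clone also differed between these groups, so their part in the difference cannot be told apart from that of SETD2. At matched 10% serum the rescue clones stood below WT eGFP, at 11427 and 11540, by a log2 change of -0.37 (adjusted p = 9.7e-05).

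The labelled KO2 rescue, grown in 2% serum as KO2 was, had 6943 and 6473. These values fell within the range of WT, and MET was 2.77-fold lower than in KO2 (log2 change -1.47, adjusted p = 1.0e-09) although SETD2 transcript was not higher. WT eGFP exceeded untransduced WT by 0.77 (adjusted p = 4.3e-07), where vector, selection and serum differ together. SOX2, OCT2 and PRRX1 lines ranged from 10881 to 12178 around eGFP, with log2 changes of -0.03, -0.08 and 0.01 and 95% intervals that all lay within -0.21 to 0.14.

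In order of level, MET was highest in KO1, then KO2, then the 4 transduced WT lines, then both rescue clones, then WT and the labelled KO2 rescue, and lowest after TGF-β. Rescue1 overlapped Rescue2, WT overlapped the labelled KO2 rescue, and PRRX1 overlapped eGFP, while KO1, KO2 and WT + TGF-β each stood apart from their neighbours in that order.

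ERBB2 differed the opposite way to MET in KO clones. It was 1810 and 2087 in WT, 1185 and 980 in KO1, and 1043 and 913 in KO2, without overlap. KO1 had a log2 change of -0.85 ± 0.12 (adjusted p = 3.9e-05) and KO2 one of -0.99 ± 0.12 (adjusted p = 1.4e-05), so neither was past the fold threshold. KO2 passed it under quantile normalization (-1.03), under equal library totals (-1.22), and without WT replicate 1 (-1.10) or KO2 replicate 1 (-1.09), and KO1 under equal totals (-1.26).

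ERBB2 after TGF-β was 1782 and 1633, and the KO clones stood below it by 0.73 on the log2 scale (adjusted p = 4.5e-05). Rescue1 (1434 and 1417) and Rescue2 (1315 and 1515) lay between KO2 and WT, above KO2 by 0.54 (adjusted p = 8.4e-04) and below WT eGFP, at 1884 and 1971, by a log2 change of -0.44 (adjusted p = 0.00447). The labelled KO2 rescue, at 1479 and 1288, also exceeded KO2 (0.50, adjusted p = 0.0139). All 6 libraries of these 3 lines were above all 4 KO libraries.

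ERBB3, the partner with weak kinase activity, was the only member called after TGF-β against WT with all libraries in the fit. It was 155 and 207 in WT and 22.9 and 32.4 after TGF-β, a 6.38-fold difference (log2 change -2.67 ± 0.44, adjusted p = 5.9e-04). In KO1 it was 97.1 and 91.6 and in KO2 64.2 and 91.8, below WT without overlap, but with adjusted p = 0.115 (log2 change -0.92) and 0.0532 (-1.21). KO2 was called with a pseudocount of 5 (adjusted p = 0.0433), with a mean of at least 50 (0.0448) and under equal library totals (-1.43, adjusted p = 0.0231), and KO1 under equal totals (-1.32, adjusted p = 0.0256). The KO clones exceeded WT + TGF-β (1.61, adjusted p = 0.00395), and this call was lost without WT + TGF-β replicate 1 (1.36, adjusted p = 0.0592). With only WT and TGF-β libraries in the fit, the TGF-β call was lost (adjusted p = 0.087), as were all others of that comparison.

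ERBB3 did not return toward WT in the rescue clones. It was 36.9 and 56.9 in Rescue1 and 10.2 and 6.95 in Rescue2, below KO2 (log2 change -1.89, adjusted p = 0.00133) and below WT eGFP, at 106 and 121 (-2.44, adjusted p = 2.0e-04). The labelled KO2 rescue had 46.6 and 26.5. So ERBB3 was lower than in KO2 in both rescue clones, where ERBB2 was higher and MET lower. For each of these genes, serum and clone also differed from KO2, so their part cannot be told apart from that of SETD2.

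EGFR was low, and its duplicates were far apart in some groups, KO1 among them, and close in others. Across the 22 libraries it ran from 1.41 through a median of 11.2 to 68.6, and the highest value was 1 of the KO1 pair, 16.6 and 68.6. WT had 9.54 and 8.67 and KO2 11.3 and 10.2. The log2 change in KO1 was 1.79 with a 95% interval of -0.48 to 4.06 (adjusted p = 0.202), and EGFR was called in none of 13 comparisons with all libraries in the fit.

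Such a level cannot be read as low expression, because genes that every cell uses were also low in this table. Of 20 widely expressed genes, chosen after their values were seen, 7 had a median under 500. POLR2A, the largest subunit of RNA polymerase II, had a median of 15.4, and HPRT1 was listed at 0 in 6 libraries, while ACTB had a median of 90441. The cause was not tested.

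Per kilobase of canonical transcript, WT had 991 ± 67.5 (SD, n = 2) normalized counts of MET, 428 ± 42.9 of ERBB2, 32.2 ± 6.63 of ERBB3 and 0.92 ± 0.062 of EGFR. The order of these 4 receptors was the same per kilobase of the median coding transcript (2084, 602, 60.2 and 3.17). Both scales divide the same counts, so this does not check whether a gene was counted low. Among ligands, WT had 6.38 ± 0.958 of TGFA, 2.44 ± 0.001 of EGF and 3.00 ± 3.31 of HBEGF on the canonical scale. EGF stood above EGFR on the first scale and below it on the second.

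**Figure D1:**
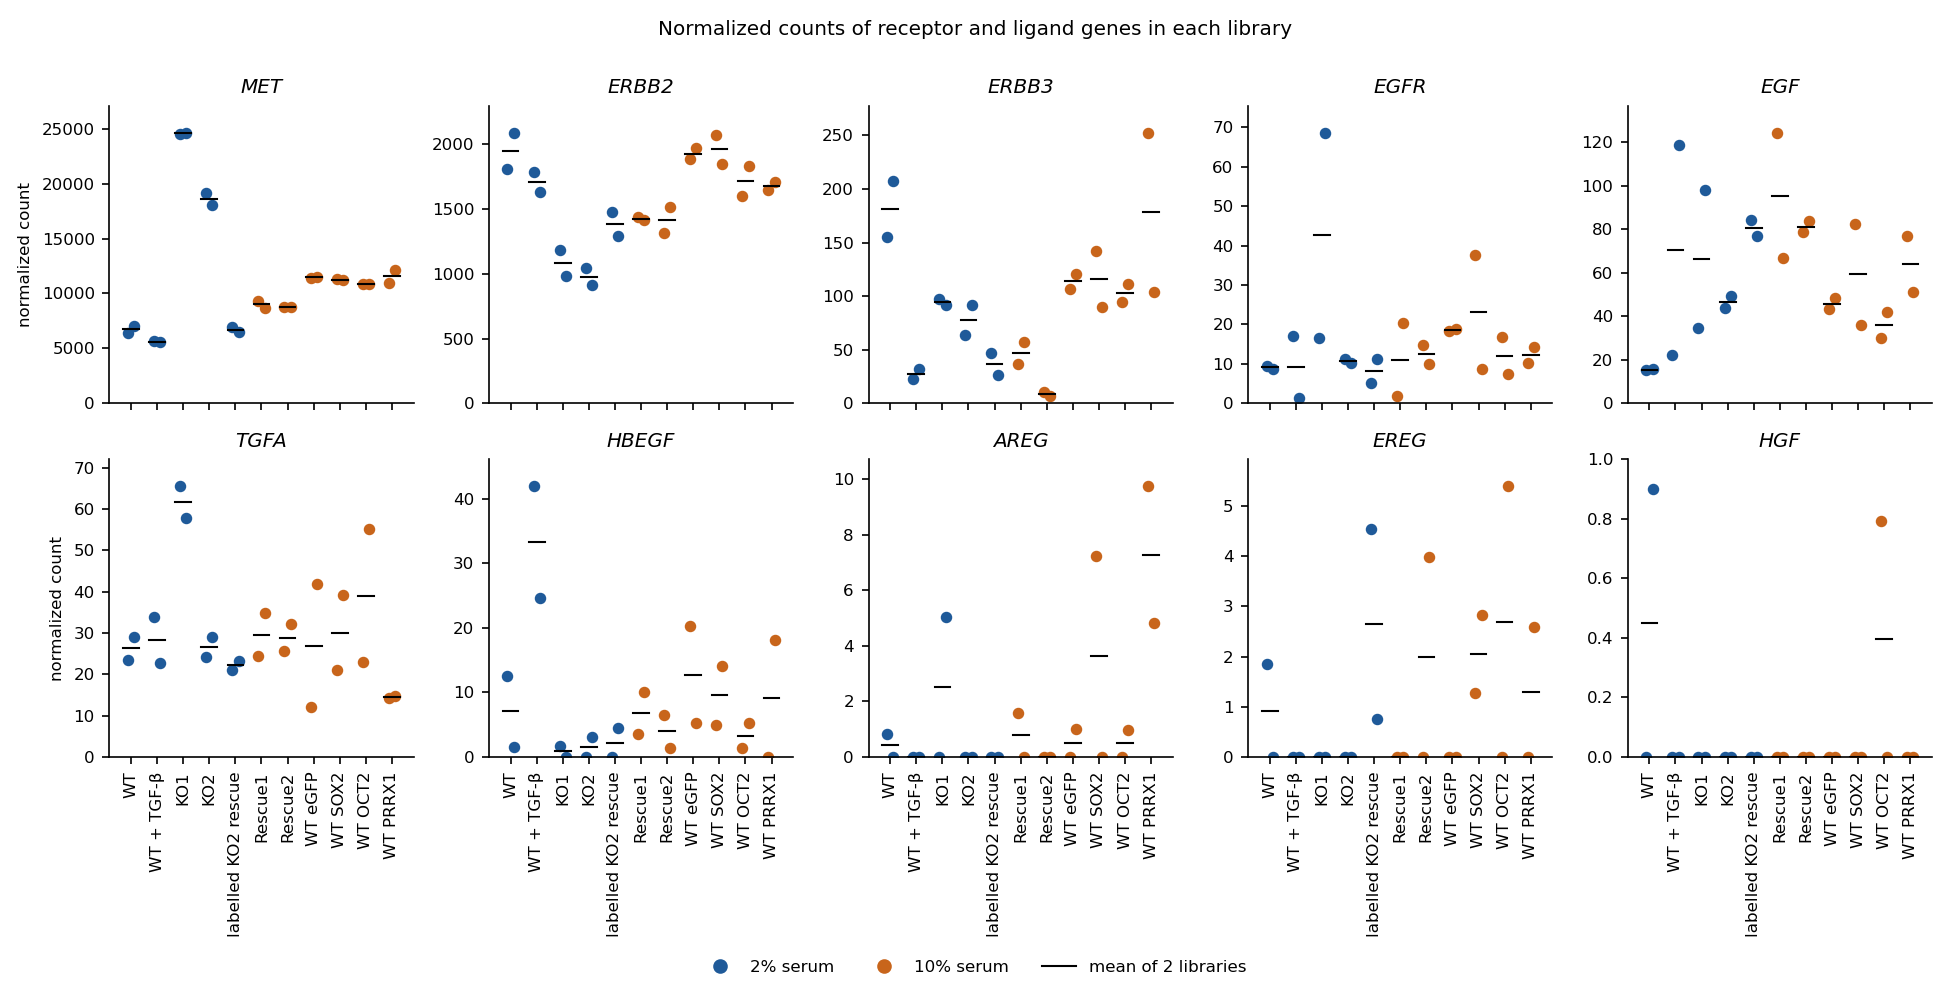
Normalized counts (y axes, linear and starting at 0, each gene on its own scale) of the 10 genes in the 11 groups (x axes), with 1 point per library and a line at the mean of 2 libraries. Blue points had 2% serum and orange points 10% serum, and the 4 KO libraries of MET, from 18045 to 24616, sit above all others, whereas duplicates of EGFR, EGF and HBEGF are often far apart.

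Ligand counts were far lower than those of MET and ERBB2, which cannot be read as lower expression in this table. EGF was 15.6 in both WT libraries, 34.8 and 98.3 in KO1, 43.7 and 49.2 in KO2, and 22.2 and 119 after TGF-β. All 20 other libraries lay above the WT pair, and EGF was called only in KO1 (log2 change 1.85 ± 0.66, adjusted p = 0.0376). That call was lost without KO1 replicate 2 (1.11, adjusted p = 0.296), without either WT library (adjusted p = 0.109), with no filter on low values (0.114), under equal totals (0.0898) and with only KO1 and WT libraries (0.192). For KO2, TGF-β and eGFP against WT the log2 changes were 1.51, 1.67 and 1.50, with adjusted p = 0.105, 0.105 and 0.114. Without TGF-β replicate 1, at 22.2, the TGF-β change was 2.85. Without replicate 2, at 119, only the value of 22.2 would stand against 15.6 in WT.

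TGFA, an EGFR ligand, was 23.5 and 29.1 in WT and 65.4 and 57.9 in KO1, the 2 highest of all 22 libraries. The log2 change was 1.21 with a 95% interval of -0.01 to 2.42 (adjusted p = 0.108). KO2, at 24.1 and 29.0, lay within the WT range.

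HBEGF, which can also be induced by ERK signaling, was 12.6 and 1.57 in WT and 41.9 and 24.7 after TGF-β. In the KO libraries it was at most 3.04 and listed at 0 in 2 of 4. The difference of TGF-β from WT had a 95% interval of -0.46 to 5.44 (log2 change 2.49, adjusted p = 0.269), and that of the KO clones from TGF-β was called (-4.18, adjusted p = 0.0125) but lost without WT + TGF-β replicate 1 (adjusted p = 0.0985) or with no filter (0.0608).

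The 3 other ligands did not reach the minimum of 10 normalized counts in at least 2 libraries and were not tested. AREG was listed at 0 in 14 libraries and reached 9.74 in a PRRX1 library. EREG was listed at 0 in 14 and reached 5.39. HGF was listed at 0 in 20 libraries and its highest value was 0.9, with 0 in all 4 KO libraries. In a bulk culture, fewer cells that express a gene and less RNA per cell cannot be told apart.

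Counted over the 7 tested genes, 2 were called in KO1 (MET and EGF, both higher) where 25.0% of all tested genes were called, and 1 in KO2 (MET) where 16.3% were. Their median log2 change was 1.21 in KO1 and 0.02 in KO2, beside 0 and 0.003 over all tested genes. After TGF-β 1 was called (ERBB3, lower; 7.84% of all genes), and between KO and TGF-β 3 were (MET and ERBB3 higher, HBEGF lower; 20.2%). Without WT + TGF-β replicate 1 both ERBB3 and HBEGF lost their calls in the last comparison, and EGFR gained one (3.07, adjusted p = 0.0467).

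Rescue against KO2 had 2 calls (MET and ERBB3, lower; 17.5% of all genes), rescue against eGFP 1 (ERBB3, lower; 13.1%), and the labelled KO2 rescue against KO2 1 (MET, lower; 4.17%). Rescue1 against Rescue2 had 1 (ERBB3; 0.994%). None was called between KO1 and KO2 (6.97%), between eGFP and WT (12.7%), or for SOX2 (0.0206%), OCT2 (0.0343%) or PRRX1 (0.0411%) against eGFP, all by limma. At an unadjusted p under 0.05 MET passed between KO1 and KO2, where 4281 of all 14585 genes did, MET and EGF between eGFP and WT, where 5360 did, and no member in the SOX2, OCT2 or PRRX1 comparisons.

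**Figure D2:**
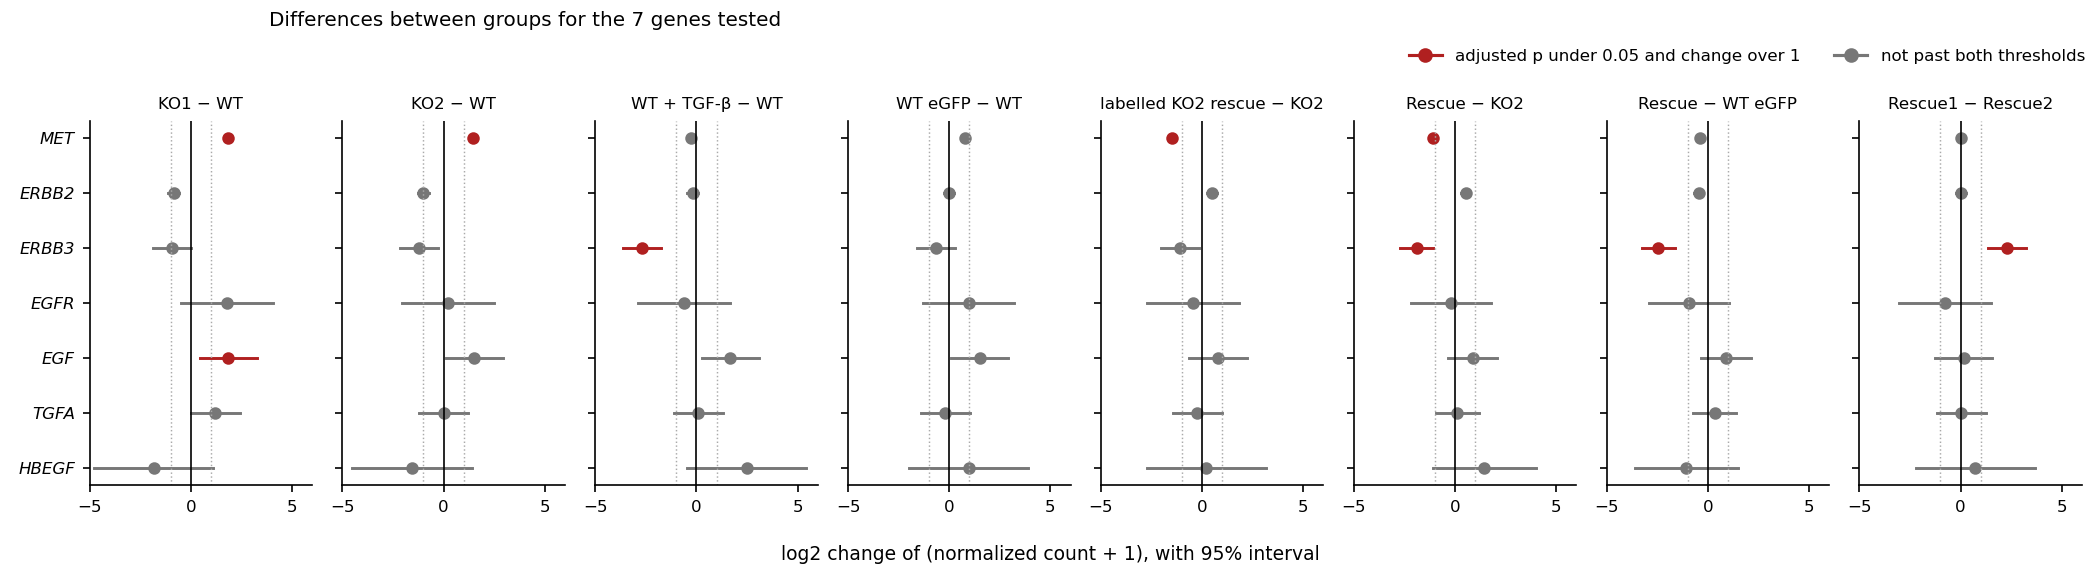
Log2 changes of (normalized count + 1) with 95% intervals (x axes) for the 7 tested genes (y axis) in 8 comparisons, each panel naming the first group minus the second. Red marks calls past both thresholds and dotted lines mark log2 changes of -1 and 1. Intervals of MET and ERBB2 are narrow, and those of EGFR and HBEGF span several log2 units.

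Around these receptors, 53 genes that process, transmit or restrain their signal were examined in 7 lists, of which 52 were in the table and 47 tested. In KO1, 13 were called higher and 4 lower (36.2%, beside 25.0% of all genes), and in KO2 10 higher and 6 lower (34.0%, beside 16.3%). Their median log2 change was 0.48 and 0.37. After TGF-β 7 were higher and 1 lower (17.0%, beside 7.84%).

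Of 8 genes that ERK signaling induces and that restrain it, 3 rose in each KO clone and none fell (37.5%, beside 25.0% of all genes in KO1 and 16.3% in KO2). DUSP6, the phosphatase of ERK, was 10.8 and 18.1 in WT, 588 and 747 in KO1, and 257 and 419 in KO2 (log2 changes 5.47 ± 0.41 and 4.46 ± 0.41, adjusted p = 5.6e-08 and 9.2e-07). SPRY4, a Sprouty inhibitor of RAS-ERK signaling, rose by 2.86 and 1.64 on the log2 scale and SPRED3 by 4.16 and 2.64. WT duplicates of SPRED3 were 78.8 and 8.06, so the size of its changes against WT depends on which is used.

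DUSP6 was 26.1 and 19.5 after TGF-β, whereas SPRY4 (2.28, adjusted p = 3.3e-05) and SPRED3 (3.56, adjusted p = 9.1e-04) rose. DUSP6 was 259 to 344 in the rescue clones, within the range of KO2, and 49.4 and 117 in the labelled KO2 rescue, lower than KO2 by limma (log2 change -2.10, adjusted p = 0.00343). That call was lost without KO2 replicate 2 (adjusted p = 0.0523) or labelled KO2 rescue replicate 1 (0.0605).

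Of 8 tested ERK target genes, 4 rose in KO1 and none fell (beside 25.0% of all genes), and in KO2 2 rose and 1 fell (37.5%, beside 16.3%). PHLDA1, a growth factor-inducible gene, was 1262 and 1393 in WT, 20878 and 21580 in KO1, and 10593 and 9409 in KO2 (log2 changes 4.0 and 2.91, adjusted p = 3.2e-15 and 2.1e-13). It was 2224 and 2159 in the labelled KO2 rescue and 3643 to 4090 in the rescue clones, lower than KO2 in both cases (-2.19 and -1.38). ETV4, an ETS factor, rose by 4.27 in KO1, 3.65 in KO2 and 2.74 after TGF-β.

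CCND1, which encodes cyclin D1, rose in KO1 (1.46, adjusted p = 4.2e-06) and after TGF-β (1.82, adjusted p = 2.5e-06), and stood at 5655 and 5465 in KO2 against 6803 and 3852 in WT. KO1 exceeded KO2 by 1.34 (adjusted p = 5.8e-05). FOSL1, an AP-1 subunit, fell in KO2 (-1.50, adjusted p = 1.3e-06). IER2, an immediate early gene, rose in KO1 (1.72, adjusted p = 0.0116), but not without KO1 replicate 2 (adjusted p = 0.163) or WT replicate 2 (0.072). IER3, another such gene, rose after TGF-β (1.28, adjusted p = 9.5e-04), with a change of 0.93 without WT replicate 2.

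Among 9 tested genes that restrain the receptors themselves, 2 were called in KO1 (22.2%, beside 25.0% of all genes) and 3 in KO2 (33.3%, beside 16.3%). LRIG1, a membrane protein that promotes loss of ERBB receptors and MET, was 159 and 213 in WT, 3713 and 3947 in KO1, and 3233 and 2927 in KO2. It rose by 4.37 and 4.05 (adjusted p = 2.6e-12 and 1.0e-11) and was 167 and 185 after TGF-β. LRIG1 was lower than KO2 in the labelled KO2 rescue (-1.47, adjusted p = 3.2e-06) and in the rescue clones (-2.45, adjusted p = 6.9e-10).

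Its paralog LRIG3 went the other way, lower in KO1 (-1.98, adjusted p = 7.3e-04), lower in KO2 (-1.38, adjusted p = 0.0132) and higher after TGF-β (2.04, adjusted p = 0.00161). WT duplicates of LRIG3 were 1443 and 424, so the size of all these changes depends on which is used. Without WT replicate 1 the KO2 change was -0.49, under the fold threshold. ERRFI1, an inhibitor of the EGFR kinase also called MIG6, fell in KO2 (-1.13, adjusted p = 0.00464), a call lost without WT replicate 2 (adjusted p = 0.0528).

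Of 6 genes for ligand release, RHBDF1 and ADAM12 were called in each KO clone (33.3%, beside 25.0% of all genes in KO1 and 16.3% in KO2). RHBDF1, which encodes the iRhom1 partner of the ADAM17 protease, was 642 and 645 in WT, 2261 and 2157 in KO1, and 1527 and 1423 in KO2 (1.78 and 1.19, adjusted p = 4.0e-09 and 5.9e-07), and the KO2 change was 0.97 under equal totals. ADAM12 rose by 1.07 and 1.09 in the clones and by 2.18 after TGF-β. Without WT replicate 2 its KO changes were 0.54 and 0.56, and under equal totals 0.66 and 0.87, under the log2 change of 1 that a call needed. ADAM10 fell after TGF-β (-1.13, adjusted p = 2.0e-06), with -0.99 without WT replicate 2.

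Activation of pro-HGF involves extracellular proteases, some of them plasminogen activators, and the inhibitors SPINT1 and SPINT2. Of 5 tested genes, 2 were called in each KO clone (40%, beside 25.0% and 16.3% of all genes). PLAT, which encodes tissue plasminogen activator, was 300 and 395 in WT, 7722 and 6920 in KO1, and 1810 and 1686 in KO2 (4.40 and 2.34, adjusted p = 1.1e-12 and 2.6e-09). PLAU, the urokinase gene, was lower in KO2 (-2.87, adjusted p = 0.0108), but not without KO2 replicate 1 (adjusted p = 0.169) or WT replicate 2 (0.12). SPINT2 was 3515 and 805 in WT and was called lower in KO1 (-1.88, adjusted p = 0.0272), a call lost without WT replicate 1 (0.35) or KO1 replicate 1 (0.225).

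SPINT1 was 2707 and 2715 in WT, and was lower in the rescue clones than in KO2 (-1.72, adjusted p = 4.3e-11). PLAU was higher there (4.10, adjusted p = 2.2e-04). PLAT, which was higher in both KO clones than in WT, was called higher again in the rescue clones than in KO2, and SPINT2 lower. So 4 of 5 tested genes were called in that comparison (80%, beside 17.5% of all genes). Against the mean of KO1 and KO2, the PLAT change in the rescue clones was 0.02. Serum and clone also differed there. HPN and ST14, which encode membrane proteases of this group, had highest values of 2.95 and 6.22.

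Of 8 adaptor genes, 3 were called in KO1 (37.5%, beside 25.0% of all genes) and 1 in KO2 (12.5%, beside 16.3%). SHC1 rose in KO1 (1.60, adjusted p = 2.1e-10), as did SOS2 (1.53, adjusted p = 0.0391, lost without WT replicate 1, WT replicate 2 or KO1 replicate 1), and GAB1, the main docking protein of MET, fell (-1.40, adjusted p = 2.8e-06). GRB2 was called lower in KO2 (-2.06, adjusted p = 0.00773), with values of 194 and 285 in WT and 31.1 and 98.4 in KO2, and the call was lost without KO2 replicate 1 (0.127) or WT replicate 2 (0.066).

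MST1R, the receptor related to MET, was 162 and 107 in WT, 6.10 and 8.15 in KO1, and 13.5 and 7.32 in KO2. It fell by 4.05 and 3.60 on the log2 scale (adjusted p = 0.00493 and 0.0138), the KO2 call being lost without WT replicate 1 (0.077) or KO2 replicate 2 (0.091). MST1, which encodes its ligand, rose in KO2 (1.34, adjusted p = 0.0145), a call lost without WT replicate 2, KO2 replicate 1 or KO2 replicate 2. ERBB4, the remaining receptor of the EGFR family, was listed at 0 in 10 libraries and was 0.673 and 48.8 in WT, and BTC and EPGN, which encode other ligands, had highest values of 9.76 and 2.12.

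**Figure D3:**
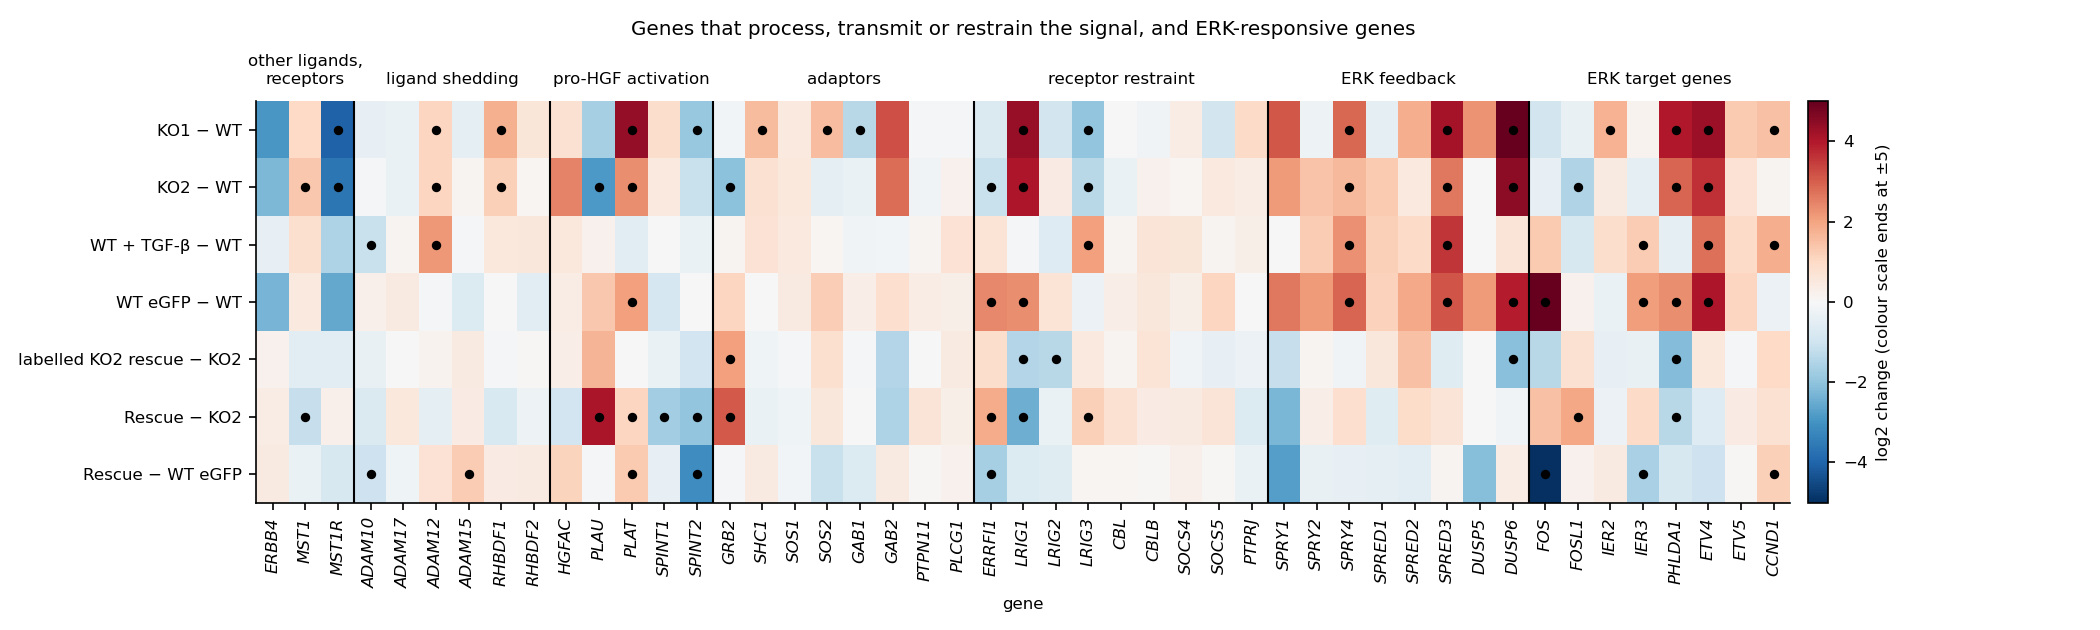
Log2 changes (colour, red higher and blue lower in the first group, scale ending at ±5) of the 47 tested genes of the 7 lists (x axis, grouped by list) in 7 comparisons (y axis). Black dots mark calls at adjusted p under 0.05 and absolute log2 change over 1, and DUSP6, LRIG1, PHLDA1 and PLAT are marked in both KO clones and in WT eGFP.

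Marker genes of cell types moved with the KO comparisons, in which 25.0% of all tested genes were called in KO1, 16.3% in KO2 and 7.84% after TGF-β. Of 8 fibroblast and pericyte genes, 4 rose and 1 fell in KO1, 4 rose in KO2 and 3 rose after TGF-β (62.5%, 50% and 37.5%). Their summed normalized counts were 12452 and 846 in WT, 223505 to 236651 in KO1, 100073 to 103687 in KO2, 46403 to 47814 after TGF-β, 39189 to 41519 in the labelled KO2 rescue and 830 to 1536 in the rescue clones. DCN, which encodes the proteoglycan decorin, was the most abundant and reached 234809 in KO1.

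Of 7 kidney epithelial genes, 1 rose and 3 fell in KO1, 2 fell in KO2 and none was called after TGF-β (57.1%, 28.6% and 0%), and their sums were 22598 to 24866 in WT, 11977 to 12632 in KO1 and 17033 to 17828 in KO2, led by KRT8. Among proximal tubule genes (5 tested) 2 rose and 1 fell in each clone. Distal nephron genes (3 tested) had 1 rise and 1 fall in KO1 and 2 falls after TGF-β, endothelial genes (4 tested) 1 rise in each clone, and leukocyte genes (2 tested) 1 rise in KO1 and 1 after TGF-β. These lists are too short for a share to be read against that background, and the 1 endothelial rise in KO1 equals it (25.0%). The highest sums of the last 3 lists in any library were 159, 157 and 371. The part of these shifts in the results for MET and ERBB2 was not tested.

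Genes whose group means followed each member most closely are given as a description, over the 11 groups and 9818 genes with a mean of at least 50, from Pearson's r on group means that share libraries and scaling. For MET they were WTAP (0.987), CXCL3 (0.972) and NAMPT (0.969). For ERBB2 they were a gene listed only as ENSG00000256591 (0.959), TNFRSF21 (0.955) and LRCH3 (0.953), for ERBB3 IMPA2 (0.944), MBTD1 (0.897) and SAP18 (0.893), and for EGF LIMS1 (0.925), PXDN (0.914) and ZNF621 (0.908).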

How the data were processed

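RNA was sequenced from 22 libraries (poly(A), stranded). Per the labels, the authors' notes name Salmon 1.9.0, DESeq2 1.26.0 and hg38, and the authors deposited log2 values on a variance-stabilized scale, whose type was read from the values. Over 36859 genes, the lowest value was 11.32 in every library, and 21.28 was the highest of any. The transformation was inverted to normalized counts, as the planned test needed. Library totals were 11674491 to 16758645 normalized counts, and steps between low values put depth at about 7800000 to 18600000 reads. Symbols came from GENCODE 44 (33878 matched), and promoters from RefSeq (9 of 10 members).

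Genes that reached 10 normalized counts in 2 or more libraries were tested by limma 3.58.1 (R 4.3.3), with a trend, in 1 fit over 22 libraries without covariates. On simulated data for KO1 against WT (14585 genes), 200 of 200 genes changed by a log2 of 2 were called, as were 12 unchanged genes. All members were named, with label checks and, per list and comparison, up to 4 called genes of largest change. Some genes that were not called are named too. Members and lists were chosen with earlier results of these data known. Alternatives included pseudocounts of 0.5 and 5, other filters and scalings, a replicate block and leaving out each library.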

Additional observations from a re-analysis of the deposited data

Results flagged for a closer look

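ERBB3 differed between the rescue clones, which carry the same transgene and were grown in the same serum. It was 36.9 and 56.9 normalized counts in Rescue1 and 10.2 and 6.95 in Rescue2, a log2 change of 2.31 (limma, Benjamini-Hochberg adjusted p = 0.0121). The difference kept its direction but was no longer called without Rescue1 replicate 2 (2.00, adjusted p = 0.113), without Rescue2 replicate 2 (2.06, adjusted p = 0.123), with only these libraries in the fit (adjusted p = 0.297) and on the deposited log2 values (0.11). SETD2 was 10240 and 10369 in Rescue1 and 10445 and 9764 in Rescue2.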

How the results depend on the processing

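Among the log2 changes recomputed for single genes, those that reversed were of MET near 0, in PRRX1 against eGFP (0.01) to -0.07 without PRRX1 replicate 2 (0.08 without replicate 1) and in OCT2 against eGFP (-0.08) to 0.00 under quantile normalization. Of 1533 alternative values, 1340 stayed on their side of the threshold. For the pathway genes, 20 of the alternative counts of calls moved and 156 did not. Counts of members called moved as follows. In KO1 against WT they were 1 with no filter, 1 with only the groups compared and 1 on the deposited log2 values, and 3 under equal totals, where EGF was lost and ERBB2 and ERBB3 were gained. In KO2 against WT they were 2 with a pseudocount of 5, 2 with a mean of at least 50, 2 under quantile normalization and 3 under equal totals. For TGF-β against WT they were 0 with only the groups compared and 0 on the deposited values. For rescue against KO2 they were 1 under quantile normalization, 1 under equal totals and 0 on the deposited values. On the deposited values they were also 1 for KO against TGF-β (2 with no filter or a mean of at least 50), 0 for rescue against eGFP and 0 for Rescue1 against Rescue2, the last also 0 with only its groups. The deposited scale compresses changes of low genes, and apart from that and from fits with fewer libraries or genes the cause was not tested. Leaving out 1 library gave 1 to 2 calls in KO1, 1 to 2 in KO2, 1 to 2 after TGF-β, 2 to 3 for KO against TGF-β and 0 to 1 between the rescue clones.

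Under equal totals the median log2 change of all genes was -0.40 in KO1, -0.21 in KO2, -0.20 after TGF-β and 0.26 for rescue against KO2, from 0, 0.003, 0 and -0.03. The share of calls that were higher went from 47.7% to 27.7%, 55.3% to 41.3%, 45.7% to 27.6% and 44.8% to 64.6%. Same-numbered replicates did not deviate together (55 pairs of groups, r from -0.08 to 0.05), and a replicate block gave 2 calls in KO1, 1 in KO2, 1 after TGF-β and 3 for KO against TGF-β, with no call of a member changed. AREG, EREG and HGF were too low to test, and what depth contributes to that was not tested.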

Other observations

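FOS, the immediate early AP-1 gene that ERK signaling induces, separated the transduced WT lines from the other lines. It was 1464 to 2215 normalized counts in the 8 libraries of WT eGFP, SOX2, OCT2 and PRRX1, and 0 to 22.4 in the 14 others, which include the rescue clones at the same 10% serum. IER3 was also lower in the rescue clones than in WT eGFP (232 to 299.7 against 815 and 801; log2 change -1.63, limma adjusted p = 1.7e-05), as was ERRFI1 (-1.68, adjusted p = 6.5e-05). DUSP6 did not follow, at 259 to 344 in the rescue clones and 196 and 259 in eGFP, and CCND1 was called higher in the rescue clones. Of 8 tested ERK target genes, 1 was called higher and 2 lower in that comparison (37.5%, beside 13.1% of all genes).

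WT eGFP against untransduced WT had 10 calls among the 47 tested pathway genes, all higher, where 12.7% of all tested genes were called, with DUSP6 (3.92), ETV4 (4.05), SPRY4 (2.90), PHLDA1 (2.32), LRIG1 (2.31) and PLAT (2.07) among them. Serum, vector and selection differ together in that comparison and cannot be told apart.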
